A study of Mus musculus with 12 samples.

Results

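The insulin-like growth factors (IGFs) and their binding proteins were followed through single cells of the mouse aorta. The 9 genes Igf1, Igf2, Igf1r, Igfbp2, Igfbp3, Igfbp4, Igfbp5, Igfbp6 and Igfbp7 were chosen by name, and all 9 were found among the 32285 genes of the expression matrices. IGF1 and IGF2 are secreted growth factors that act through the receptor IGF1R, a tyrosine kinase whose signal runs through the IRS adaptors, PI3 kinase and AKT. The binding proteins hold the growth factors in the fluid between cells and in blood, where they prolong their life and limit or deliver them to the receptor, and proteases such as HTRA1 and the pappalysins set the growth factors free by cutting them. IGFBP7 binds insulin-like growth factors only weakly and is known mainly as a protein of the vessel wall matrix. In the artery this system is known for effects on the growth, survival and migration of smooth muscle cells.

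All 4 groups were male C57BL/6J mice labelled ApoE-/-, which lack apolipoprotein E and develop atherosclerosis (AS) on a fat-rich diet. The mice were 8 weeks old at the start and were kept for 24 weeks. The first group, named healthy control in the study and without treatment in the sample labels, received normal diet and saline, and the AS group received high-fat diet and saline. The MTZ-treated group received high-fat diet and methazolamide (MTZ), a carbonic anhydrase inhibitor, at 25 mg/kg for the last 12 of the 24 weeks, and the MTZ-preventive group the same dose for all 24 weeks. The labels spell the drug methoxazolamide. Aortas of 6 mice were pooled per group into 1 library of 10x 5′ gene expression, so each condition is 1 library and differences between mice cannot be seen. No p-value was therefore computed, and every interval below is a 95% interval for counting error only, which is too narrow where a few cells hold many transcripts.

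After filtering, the libraries held 11121 cells labelled healthy control, 2160 cells of AS, 6796 MTZ-treated and 14186 MTZ-preventive cells, with 28007609, 3749992, 14968429 and 33010236 unique molecular identifiers (UMIs). They were deposited with 21857, 6908, 20938 and 23963 barcodes, so unlike shares were kept. A looser cell filter, tried as an alternative, kept 17950, 6443, 17374 and 19275 cells. Levels are given as the UMIs of a gene per 1000000 UMIs of the same cells (CPM), and the AS library, the shallowest, sets the limit of most comparisons. Apoe itself stood at 703 CPM in the library labelled healthy control and at 11.2, 12.1 and 8.17 CPM in AS, MTZ-treated and MTZ-preventive, which goes against the ApoE-/- label of the first. Its difference from AS is therefore a difference between these libraries and not one of diet alone. Pairs of libraries shared between 24 and 241 cell barcodes. In 3 comparisons the AS library was set against the one labelled healthy control, and each MTZ library against AS. All of them use the AS library, so that a low AS value alone gives a high value in both MTZ comparisons.

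Cells were assigned to a class by markers, a gate that asks for at least 3 of 10 markers of the class and more than of any other. Fibroblast-like cells numbered 1403, 309, 1644 and 3257 in the order above, smooth muscle-like cells 2169, 576, 2524 and 3828, and endothelial-like cells 662, 413, 1103 and 1461. All 10 markers of each of these 3 classes were detected in every library within the class, which the gate on the same markers makes likely in itself. In B-like cells of the 3 libraries that held at least 20 of them, the 10 smooth muscle-like markers together stood at 247 to 472 CPM, and the source of these transcripts was not tested. Only 28.7% of the smooth muscle-like cells lay in a cluster that was itself smooth muscle-like, and values for those cells, chosen after the data were seen, are given beside the gate. Clusters were formed without the 9 genes, and they are called by their first leading gene other than these. Levels and ratios of a single cluster take all its cells, whatever their gate.

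In AS, 260 of the 576 smooth muscle-like, 162 of the 413 endothelial-like and 93 of the 309 fibroblast-like cells lay in an unnamed cluster led by S100a8, a gene of neutrophils. In MTZ-preventive, 1266 of the smooth muscle-like and 822 of the fibroblast-like cells lay in an unnamed cluster led by Prg4, which held none of those labelled healthy control. The adipocyte-like markers summed to 1040 CPM in the smooth muscle-like gate of AS against 81.9 to 521 CPM in the other libraries, with none of the 10 at 0 in AS, and the neutrophil-like markers to 324 CPM against 8.91 to 21.4 CPM. Inside the smooth muscle-like clusters these sums were 116 to 187 CPM and 0.330 to 22.6 CPM over the 4 libraries. The part of these mixtures in the results by gate was not tested.

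Igfbp2 and Igfbp5 are neighbours, and their upstream sequences are shown because both genes were low in smooth muscle-like cells of AS. In the GRCm38.p6 annotation of RefSeq, Igfbp2 lies on chromosome 1 from 72824480 to 72852474 and Igfbp5 from 72858065 to 72874865 on the other strand, end to end with 5.59 kb between them. The 250 bases upstream of the first start of each gene, chr1:72824230-72824479 on the plus strand and chr1:72874866-72875115 on the minus strand, read as follows from 5′ to 3′, with GC boxes (GGGCGG) of Igfbp2 and the TATTTAA box of Igfbp5 in capitals.
Igfbp2: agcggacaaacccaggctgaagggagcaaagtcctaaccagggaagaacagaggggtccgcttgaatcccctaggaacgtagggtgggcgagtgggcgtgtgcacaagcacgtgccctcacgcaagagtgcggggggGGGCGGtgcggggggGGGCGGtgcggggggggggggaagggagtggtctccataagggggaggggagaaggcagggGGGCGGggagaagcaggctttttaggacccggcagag
Igfbp5: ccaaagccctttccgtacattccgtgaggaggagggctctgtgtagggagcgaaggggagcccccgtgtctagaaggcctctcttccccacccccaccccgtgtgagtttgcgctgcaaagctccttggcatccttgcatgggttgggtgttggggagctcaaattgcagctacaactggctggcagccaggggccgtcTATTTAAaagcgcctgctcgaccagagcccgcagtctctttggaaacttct
The Igfbp2 window holds 3 GC boxes and is 67.2% G and C, and the Igfbp5 window holds 1 TATTTAA box and is 58.8% G and C. Both strands were searched for 5 motifs picked after the sequences were seen. Among 32851 mouse promoters of the same length, 32.7% hold a GC box and 4.18% a TATTTAA box. The TATA box, searched as TATAAA, is in 12.4% of them, and the CCAAT box in 33.8%. The CArG box, the site of serum response factor in smooth muscle genes, is in 1.47%. The Igfbp2 and Igfbp5 windows shown have none of these motifs in common, and Igfbp4 and Igfbp6 each hold 1 TATA box.

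The cell types divided the family among themselves. Among classes of at least 20 cells, Igfbp2 and Igfbp7 were highest in smooth muscle-like cells and Igfbp4 in fibroblast-like cells in each of the 4 libraries. Igfbp6 was highest in fibroblast-like cells in 3 of them, and in MTZ-preventive 24 mesothelial-like cells stood above, at 2693 CPM. Smooth muscle-like cells held 87.5% to 93.3% of the Igfbp2 UMIs outside AS, which had 5 in all. Fibroblast-like cells held 72.9% to 86.0% of the Igfbp6 UMIs in each library. By level, Igf1 was highest in fibroblast-like cells labelled healthy control, in macrophage-like cells of AS and MTZ-treated, and in adipocyte-like cells of MTZ-preventive. Igf2 was highest in smooth muscle-like cells of AS and in endothelial-like cells of the other libraries. Both ranks in AS were near ties with overlapping intervals. Igf1 stood at 304 CPM in macrophage-like and 302 CPM in adipocyte-like cells, and Igf2 at 79.7 CPM in smooth muscle-like and 73.3 CPM in endothelial-like cells. By UMIs, macrophage-like cells held 7, 61, 102 and 1 of Igf1, against 169, 125, 172 and 746 in the smooth muscle-like gate. Of 166, 74, 332 and 331 Igf2 UMIs in that gate, 27, 12, 63 and 50 lay in smooth muscle-like clusters.

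**Figure D1:**
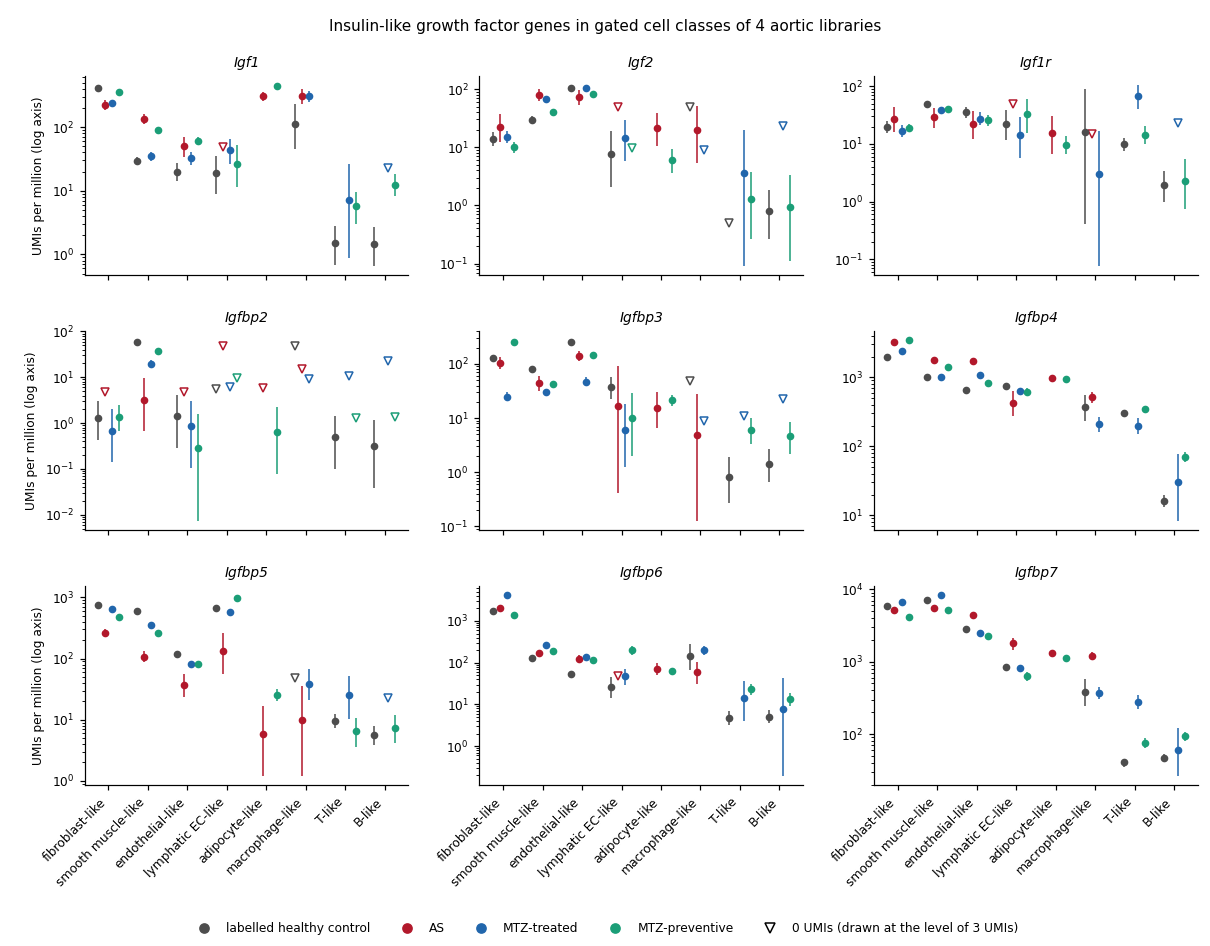
Level of each of the 9 genes (CPM, log axis) in 8 marker-gated cell classes, with a point and 95% counting interval per library and a triangle at the level of 3 UMIs where none was seen. Igfbp2 stands out in smooth muscle-like cells and Igfbp6 in fibroblast-like cells, and the AS points of Igfbp5 lie lowest in the 4 vessel wall classes.

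**Figure D2:**
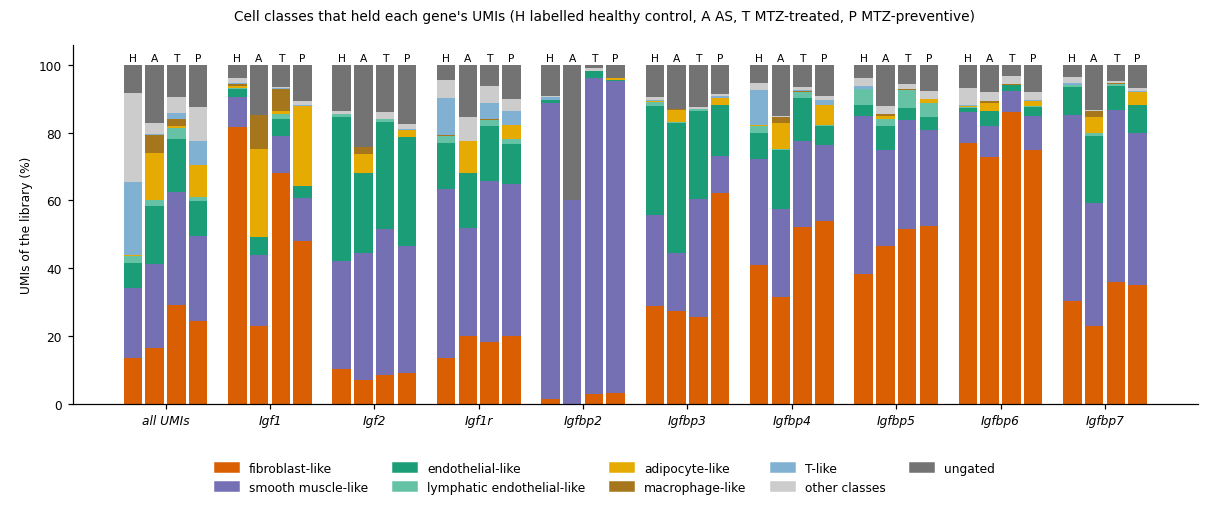
Share of the UMIs of each gene (percent, stacked) that came from each cell class, with 1 bar per library and all UMIs at the left. The share of Igf1 from fibroblast-like cells runs from 23.0% in AS to 81.7% in the library labelled healthy control.

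Igf1, the growth factor made in many tissues under growth hormone, was followed first in the fibroblast-like cells. Its level there was 409.8 CPM in the library labelled healthy control, 222 CPM in AS, 243 CPM in MTZ-treated and 350.4 CPM in MTZ-preventive. AS was 1.85-fold lower (1.55 to 2.21) than the library labelled healthy control, short of the 2-fold limit used here, and MTZ-treated differed from AS by 1.09-fold (0.915 to 1.32). Cells in fibroblast-like clusters gave nearly the same ratio, 1.83-fold lower (1.52 to 2.21).

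Fibroblast clusters differed in Igf1 and in how much of each library they took. The cluster led by Cxcl13, which also carries Clec3b and Penk, had 400.1, 347, 274 and 400.2 CPM, and in it AS differed from the library labelled healthy control by 1.15-fold (0.949 to 1.41), an interval that holds 1. The cluster led by Timp1, with Fbn1, Postn and Sfrp4, stayed at 189.7 CPM or below in each library. A cluster led by Fmod reached 586 CPM, and it held 316 of the gated fibroblast-like cells labelled healthy control and none of AS. The 309 AS cells were divided mainly among the Timp1-led cluster with 116, the S100a8-led cluster with 93 and the Cxcl13-led cluster with 81, against 22, 0 and 341 of the 1403 cells labelled healthy control.

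Outside the fibroblasts, Igf1 reached 302 CPM in the adipocyte-like cells of AS and 438 CPM in those of MTZ-preventive, the libraries with at least 20 such cells. Macrophage-like cells had 113 CPM labelled healthy control, from 28 cells, 304 CPM in AS and 307 CPM in MTZ-treated. In the smooth muscle-like gate AS stood at 134.5 CPM against 29.5, 34.5 and 90.2 CPM, which was 4.56-fold higher (3.59 to 5.78) than the library labelled healthy control. Cells in smooth muscle-like clusters gave 11.2, 0, 11.7 and 17.1 CPM, so that this difference was not seen there, although the AS value rests on 65 cells. B-like cells had 1.44 CPM labelled healthy control and 12.5 CPM in MTZ-preventive.

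Igf2, the growth factor best known from fetal growth, was highest in endothelial clusters that carry arterial genes, although the smooth muscle-like gate held 32.0% to 43.1% of its UMIs per library and the endothelial-like gate 23.7% to 42.5%. The gated endothelial-like cells had 104 CPM in the library labelled healthy control, 73.3 CPM in AS, 103 CPM in MTZ-treated and 82.6 CPM in MTZ-preventive, and no difference between these libraries passed 2-fold. A single cluster, whose leading genes other than Igf2 are Sema3g, Sox17 and Podxl, held 50.6% of all Igf2 UMIs with 4.97% of all UMIs. Its levels were 222, 379, 316 and 334 CPM, and AS was 1.70-fold higher (1.29 to 2.23) than the library labelled healthy control in it. In the smaller cluster led by Adh7, with the arterial genes Gja5 and Bmx, the levels were 179, 52.2, 89.2 and 181 CPM, and AS was 3.43-fold lower (1.42 to 10.80), on 5 UMIs in 60 cells. The Selp-led and Car4-led clusters, which carry venous and capillary genes, stayed at 25.6 CPM or below in each library.

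In smooth muscle-like cells Igf2 read 29.0, 79.7, 66.5 and 40.0 CPM. AS was 2.75-fold higher (2.06 to 3.63) than the library labelled healthy control, and in the smooth muscle-like clusters, at 8.91, 67.9, 24.5 and 13.1 CPM, it was 7.62-fold higher (3.52 to 15.56). That larger ratio rests on 12 UMIs in 65 cells of AS. In the smooth muscle cluster led by Nrip2 alone AS was 4.38-fold higher (2.05 to 8.95), on 13 UMIs in 43 cells. The cluster led by Sost had 0 Igf2 UMIs in its 26 AS cells, and the part of cell makeup was not tested. The gated smooth muscle-like cells included 264, 39, 564 and 267 cells that lay in the Sema3g-led endothelial cluster, against 88, 33, 247 and 238 of the gated endothelial-like cells. In all, this cluster held 1134 smooth muscle-like and 606 endothelial-like cells by gate, and their part in the gate values was not tested.

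Igf1r, the receptor, kept within 2-fold over the 4 libraries in each main class. Smooth muscle-like cells had 48.4, 29.1, 38.3 and 40.9 CPM, endothelial-like cells 35.4, 21.8, 27.6 and 25.8 CPM, and fibroblast-like cells 19.6, 27.3, 16.7 and 18.8 CPM. Within smooth muscle, the cluster led by Sost stood at 83.2, 44.2, 60.7 and 66.3 CPM and the cluster led by Nrip2 between 24.3 and 50.8 CPM. The lowest level of the Sost-led cluster was in AS, where 26 cells gave it.

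Igfbp2, a binding protein with a preference for IGF2, lay mostly in smooth muscle-like cells and carried the widest fold difference of the 9 genes in the 3 main classes by gate. Smooth muscle-like cells had 58.9 CPM in the library labelled healthy control, 3.23 CPM in AS, 19.6 CPM in MTZ-treated and 37.4 CPM in MTZ-preventive. AS held 3 UMIs and was 18.24-fold lower (6.19 to 88.88) than the library labelled healthy control. MTZ-treated was 6.08-fold higher (2.02 to 29.99) than AS and MTZ-preventive 11.57-fold higher (3.92 to 56.43). AS was the lowest library and its interval lay apart from those of the other 3. Fibroblast-like and endothelial-like cells did not pass 1.41 CPM in any library.

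Most Igfbp2 UMIs came from few cells of 1 cluster. The Sost-led cluster, with Optc and Itga8, held 77.1% of all Igfbp2 UMIs, at 135 CPM labelled healthy control, 0 in AS, 47.0 CPM in MTZ-treated and 104 CPM in MTZ-preventive. In the Nrip2-led cluster, with Pln and Notch3, no library passed 2.54 CPM. Cells with an Igfbp2 UMI numbered 35 of 334 (10.5%, exact binomial interval 7.41 to 14.3), 0 of 26, 31 of 565 (5.49%, 3.76 to 7.70) and 59 of 705 (8.37%, 6.43 to 10.7) in the Sost-led cluster, at median depths of 6182, 2263, 2738 and 2855 UMIs. B-like cells, which should lack the gene, had a UMI in 0.0327% of cells labelled healthy control at a median depth of 1934 UMIs.

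The 0 of 26 in AS allows a share of up to 11.5%, or 13.2% by the exact binomial interval, so a lower share of cells with an Igfbp2 UMI in AS was not detectable at this depth. By UMIs, the smooth muscle-like clusters had 94.7, 0, 32.7 and 72.7 CPM. With its 0 taken as the floor of 3 UMIs, AS was 5.58-fold lower than the library labelled healthy control. The lower limit of the interval was 4.51-fold. On the same floor MTZ-treated was 1.93-fold and MTZ-preventive 4.28-fold higher than AS, with lower limits of 1.53-fold and 3.46-fold. These values pool clusters in unlike shares, with 26 Sost-led and 39 Nrip2-led cells in AS against 334 and 206 labelled healthy control. In the Sost-led cluster alone, the lower limit of the interval put AS 2.47-fold below the library labelled healthy control. Against AS there, the lower limit was 0.845-fold for MTZ-treated, an interval that holds 1, and 1.90-fold for MTZ-preventive. The part of cell makeup was not tested. A single MTZ-preventive cell held 104 UMIs, and without it the gate of that library had 24.8 CPM in place of 37.4, against 19.6 CPM in MTZ-treated.

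Igfbp5, a binding protein that attaches to the matrix, was lower in AS than in the library labelled healthy control in each of 4 vessel wall classes. Fibroblast-like cells had 750.0, 264, 642 and 484 CPM, and AS was 2.84-fold lower (2.43 to 3.35) than the library labelled healthy control. Smooth muscle-like cells had 608, 108, 349 and 258 CPM, and AS was 5.65-fold lower (4.63 to 6.96). Endothelial-like cells had 117, 37.4, 80.6 and 82.9 CPM, and AS was 3.13-fold lower (2.05 to 4.97). Lymphatic endothelial-like cells had 664, 131, 569.8 and 982 CPM, and AS was 5.05-fold lower (2.54 to 11.80), from 27 cells, of which 1 held all 8 UMIs, so that the lymphatic values against AS rest on a single cell.

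AS was the lowest of the 4 libraries in all 4 classes, so both MTZ libraries stood above it. MTZ-treated was 2.43-fold higher (2.08 to 2.87) than AS in fibroblast-like, 3.24-fold (2.65 to 4.01) in smooth muscle-like, 2.15-fold (1.40 to 3.44) in endothelial-like and 4.34-fold (2.17 to 10.14) in lymphatic cells. MTZ-preventive was 1.83-fold higher (1.57 to 2.16), 2.40-fold (1.96 to 2.96), 2.22-fold (1.46 to 3.51) and 7.48-fold (3.75 to 17.48) higher. Neither MTZ library reached the level labelled healthy control in the 3 main classes.

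Among cells that also lay in clusters of their class, the Igfbp5 difference between AS and the library labelled healthy control was smaller in smooth muscle and nearly the same elsewhere, at 2.89-fold lower (2.45 to 3.43) in fibroblast-like, 3.14-fold (1.80 to 5.99) in endothelial-like and 5.26-fold (2.64 to 12.28) in lymphatic cells. In the smooth muscle-like clusters the levels were 573, 238, 343 and 292 CPM. AS was 2.41-fold lower (1.78 to 3.36) than the library labelled healthy control, with MTZ-treated 1.44-fold (1.06 to 2.02) and MTZ-preventive 1.23-fold (0.904 to 1.72) higher than AS, so the smooth muscle-like calls against AS were lost. In endothelial-like clusters the calls against AS were lost too, at 1.59-fold (0.894 to 3.08) and 1.62-fold (0.921 to 3.11), on 13 UMIs in AS. In the Nrip2-led cluster, the higher of the pair, Igfbp5 read 1266, 350.4, 627 and 472 CPM with AS 3.61-fold lower (2.64 to 5.08). MTZ-treated was 1.79-fold (1.30 to 2.54) and MTZ-preventive 1.35-fold (0.977 to 1.91) higher than AS there. In the Sost-led cluster AS was 9.14-fold lower (2.52 to 75.63), on 2 UMIs in 26 cells. Against AS there, MTZ-treated was 7.10-fold (1.95 to 58.81) and MTZ-preventive 7.15-fold (1.97 to 59.19) higher. Each cluster alone gave a larger AS difference than both pooled, and the part of cell makeup was not tested. In fibroblast-like cells the direction against the library labelled healthy control turned under a looser cell filter, to a log2 ratio of 0.13 from -1.51, and in endothelial-like cells the log2 ratio moved from -1.64 to -0.49. Levels in the Cxcl13-led fibroblast cluster were 1253, 299, 713 and 513 CPM, and in the Timp1-led cluster 329, 190.0, 374 and 499 CPM.

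**Figure D3:**
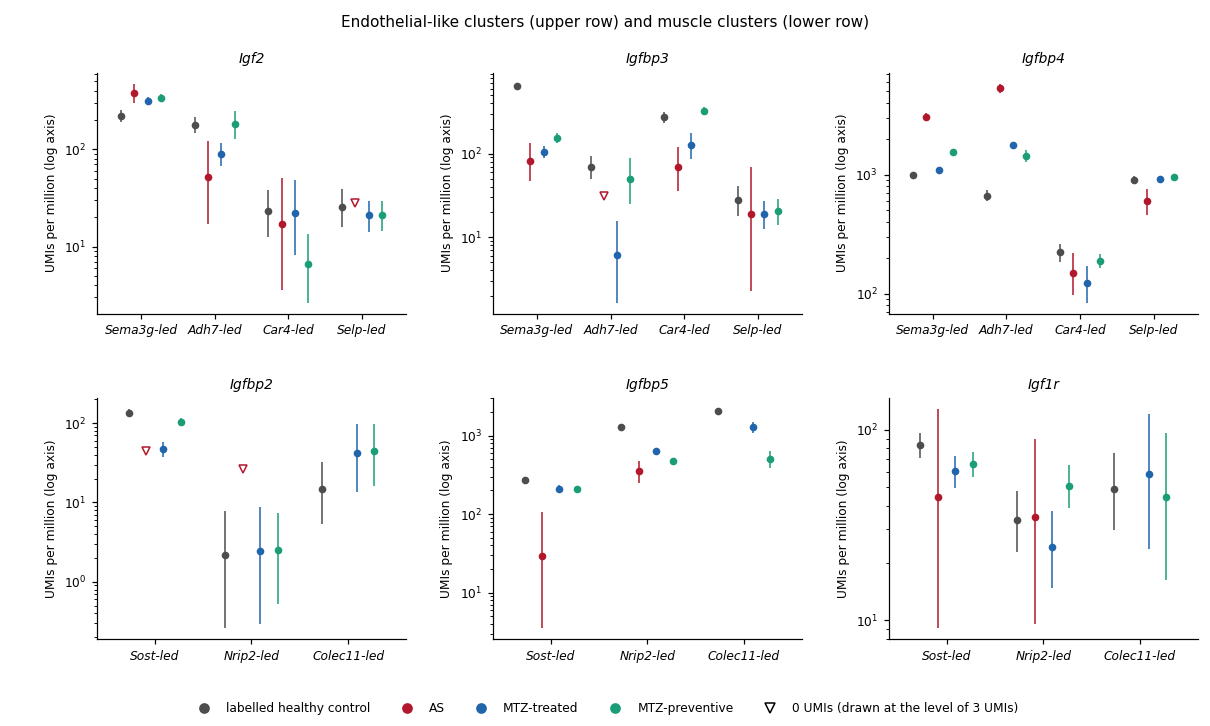
Levels (CPM, log axis) of Igf2, Igfbp3 and Igfbp4 in 4 endothelial-like clusters and of Igfbp2, Igfbp5 and Igf1r in 3 muscle clusters, with a point and 95% counting interval per library and a triangle at the level of 3 UMIs where none was seen. Igfbp2 is highest in the Sost-led cluster, with none in AS, and Igfbp4 of the Adh7-led cluster peaks in AS at 5344 CPM.

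Igfbp4, an inhibitory binding protein that is cut by pappalysin, was high in AS endothelium. Endothelial-like cells had 661 CPM in the library labelled healthy control, 1728 CPM in AS, 1095 CPM in MTZ-treated and 835 CPM in MTZ-preventive. AS was 2.61-fold higher (2.41 to 2.83) than the library labelled healthy control, MTZ-treated 1.58-fold lower (1.47 to 1.69) than AS, and MTZ-preventive 2.07-fold lower (1.93 to 2.22). The values in endothelial-like clusters kept these directions, at 2.86-fold higher (2.61 to 3.13), 1.77-fold lower (1.63 to 1.93) and 2.40-fold lower (2.20 to 2.61).

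The difference was found in the clusters with arterial genes. In the Adh7-led cluster Igfbp4 read 665, 5344, 1771 and 1441 CPM, and AS was 8.04-fold higher (7.02 to 9.21) than the library labelled healthy control, with a UMI in 57 of its 60 cells. In the Sema3g-led cluster it read 995, 3056, 1098 and 1558 CPM, and AS was 3.07-fold higher (2.77 to 3.41). The Selp-led cluster had 904, 596, 927 and 955 CPM, and the Car4-led cluster 222, 149, 122 and 189 CPM, with AS not above the library labelled healthy control in either. Lymphatic endothelial-like cells had 743, 427, 629 and 614 CPM.

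In fibroblast-like cells, its highest class, Igfbp4 read 1952, 3275, 2400 and 3454 CPM. AS was 1.68-fold higher (1.60 to 1.76) than the library labelled healthy control, and no comparison passed 2-fold. In smooth muscle-like clusters it read 984, 1964, 848 and 1182 CPM, and MTZ-treated was 2.32-fold lower (2.06 to 2.60) than AS. AS was the highest library in smooth muscle-like and endothelial-like cells, while in fibroblast-like cells MTZ-preventive lay above it by a log2 ratio of 0.08.

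Igfbp3, the main carrier of IGF1 in blood, stood 10.2-fold apart between the MTZ libraries in fibroblast-like cells. Its levels were 128 CPM labelled healthy control, 105 CPM in AS and 256 CPM in MTZ-preventive, and MTZ-treated was the lowest, with 109 UMIs in 1644 cells. MTZ-treated was 4.18-fold lower (3.03 to 5.74) than AS and MTZ-preventive 2.45-fold higher (1.91 to 3.19), so that the libraries of the same drug stood on opposite sides of AS. Cells in fibroblast-like clusters gave 4.74-fold lower (3.39 to 6.58) and 2.58-fold higher (1.99 to 3.40). In the Cxcl13-led cluster alone the levels were 252, 169, 25.3 and 357 CPM, and in the Timp1-led cluster 21.4, 17.9, 24.2 and 31.1 CPM. MTZ-treated was 6.68-fold lower (4.72 to 9.40) than AS in the first, and in the second the interval of the same ratio held 1. Of the 65 AS UMIs 22 came from 1 cell, and without that cell the AS level was 69.4 CPM.

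Endothelial Igfbp3 depended on which cells were taken. By gate it read 256, 142, 47.1 and 144 CPM, and MTZ-treated was 3.01-fold lower (2.26 to 4.01) than AS. In endothelial-like clusters it read 280.0, 36.9, 50.3 and 163 CPM, AS was 7.57-fold lower (4.47 to 13.94) than the library labelled healthy control, and MTZ-preventive was 4.40-fold higher (2.60 to 8.11) than AS. The direction of MTZ-treated against AS turned between these sets of cells, with a log2 ratio of -1.59 by gate and 0.45 within clusters. A single cell labelled healthy control held 159 of the 543 UMIs of its gate, and without it the level was 183 CPM. The neutrophil-like marker sum of the AS gate was 147 CPM against 26.4 CPM within clusters.

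Igfbp6, a binding protein that prefers IGF2, followed the Cxcl13-led fibroblasts, which held 66.9% of all its UMIs. Fibroblast-like cells had 1691, 2024, 4138 and 1409 CPM. MTZ-treated was the highest library, 2.04-fold higher (1.93 to 2.17) than AS, and 1.80-fold higher (1.70 to 1.92) in fibroblast-like clusters, short of 2-fold. In the Cxcl13-led cluster the Igfbp6 levels were 3215, 2716, 4820.3 and 1553 CPM, and in the Timp1-led cluster 651, 896, 1533 and 1344 CPM. MTZ-treated was the highest library in both clusters, while MTZ-preventive was the lowest in the first and above AS in the second. In endothelial-like cells Igfbp6 read 52.8, 122, 139.5 and 116 CPM, and AS was 2.30-fold higher (1.70 to 3.10) than the library labelled healthy control. Cells in endothelial-like clusters gave 3.49-fold higher (2.34 to 5.18). The Sema3g-led cluster, taken with all its cells whatever their gate, gave 10.97-fold higher (7.52 to 16.25), on 93 UMIs in 110 AS cells. Of those AS cells 33 were endothelial-like and 39 smooth muscle-like by gate, and their part in this ratio was not tested. The Car4-led cluster was higher too, on 7 UMIs in AS and 1 labelled healthy control. In the Selp-led cluster, at a ratio of 1.21 (0.462 to 2.70), and the Adh7-led cluster, at 0.436 (0.0502 to 1.74), the interval held 1.

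Igfbp7 stayed within 2-fold over the 4 libraries in each main class by gate, but not in each cluster. Smooth muscle-like cells had 7040.1, 5579, 8309 and 5206 CPM, and fibroblast-like cells 5830, 5229, 6773 and 4158 CPM. In the Timp1-led fibroblast cluster AS was 3.54-fold higher (3.17 to 3.96) than the library labelled healthy control. MTZ-treated was 1.61-fold (1.54 to 1.68) and MTZ-preventive 2.14-fold (2.04 to 2.23) lower than AS there. In the Cxcl13-led cluster AS was 1.42-fold higher (1.35 to 1.49) than the library labelled healthy control. Endothelial-like cells had 2869, 4400.1, 2510 and 2279 CPM, and AS was 1.53-fold higher (1.47 to 1.60) than the library labelled healthy control. Endothelial clusters differed more than libraries did, since the Car4-led cluster had 5952, 6434, 7278 and 4797 CPM and the Adh7-led cluster 381, 469.7, 392 and 258 CPM. In lymphatic endothelial-like cells AS, with 27 cells, was 2.12-fold higher (1.70 to 2.62) than the library labelled healthy control, and MTZ-treated and MTZ-preventive were 2.21-fold (1.77 to 2.74) and 2.84-fold (2.22 to 3.61) lower than AS.

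The comparisons were then counted over the family and set beside all genes tested, which were those with a mean of at least 10 CPM over the 4 libraries of the class. A gene was called where its ratio passed 2-fold and its interval did not hold 1. In fibroblast-like cells AS against the library labelled healthy control called 1 of 8 members, Igfbp5, against 12% of all 7982 genes. MTZ-treated against AS called 3 of 8, with Igfbp5 and Igfbp6 higher and Igfbp3 lower, against 7.44% of all genes. MTZ-preventive against AS called 2 of 8, with Igfbp3 higher and Igf2 lower, against 5.85% of all genes. The Igf2 call was 2.25-fold lower (1.18 to 3.99), at 22.5 CPM in AS and 10.0 CPM in MTZ-preventive.

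In smooth muscle-like cells AS against the library labelled healthy control called 4 of 9 members, with Igf1 and Igf2 higher and Igfbp2 and Igfbp5 lower, against 15.8% of all 8387 genes. MTZ-treated against AS called 3 of 9, with Igfbp2 and Igfbp5 higher and Igf1 lower, against 10.7%. MTZ-preventive against AS called 2 of 9, Igfbp2 and Igfbp5, both higher, against 8.49%. Among cells in smooth muscle-like clusters the counts were 3 of 7, 4 of 7 and 2 of 7, against 9.28%, 6.25% and 6.49% of 7707 genes. Igfbp2 was called in all 3 there and Igf2 in all 3, Igfbp5 in AS against the library labelled healthy control, and Igfbp4 and Igfbp6 in MTZ-treated against AS. The Igfbp2 calls there, and that of Igfbp6, set another library against 0 UMIs in AS. In MTZ-treated their ratios on the floor of 3 UMIs, 1.93-fold for Igfbp2 and 1.70-fold for Igfbp6, fall short of 2-fold. The count of MTZ-treated therefore holds 2 calls that rest on a 0. Igfbp6 read 7.26, 0, 28.8 and 12.9 CPM in these clusters. It passed the level filter only through MTZ-treated, the library in which it was then called higher.

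In endothelial-like cells AS against the library labelled healthy control called 4 of 8 members, with Igf1, Igfbp4 and Igfbp6 higher and Igfbp5 lower, against 11.1% of all 8274 genes. MTZ-treated against AS called 2 of 8, Igfbp5 higher and Igfbp3 lower, against 8.56%. MTZ-preventive against AS called 2 of 8, Igfbp5 higher and Igfbp4 lower, against 6.13%. Among cells in endothelial-like clusters the counts were 4 of 8, 0 of 8 and 2 of 8, against 9.86%, 8.69% and 7.02% of 8203 genes. The Igf1 call was lost there, from 2.52-fold higher (1.54 to 4.09) to 1.44-fold (0.605 to 3.09) on 9 UMIs in AS, and Igfbp3 was called lower in AS and higher in MTZ-preventive. With 7 to 9 members tested, each called gene moves such a share by over 10 percentage points. The median log2 ratio of the members lay between -0.34 and 0.40 over these 9 comparisons by gate, and that of all genes between -0.12 and 0.12.

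**Figure D4:**
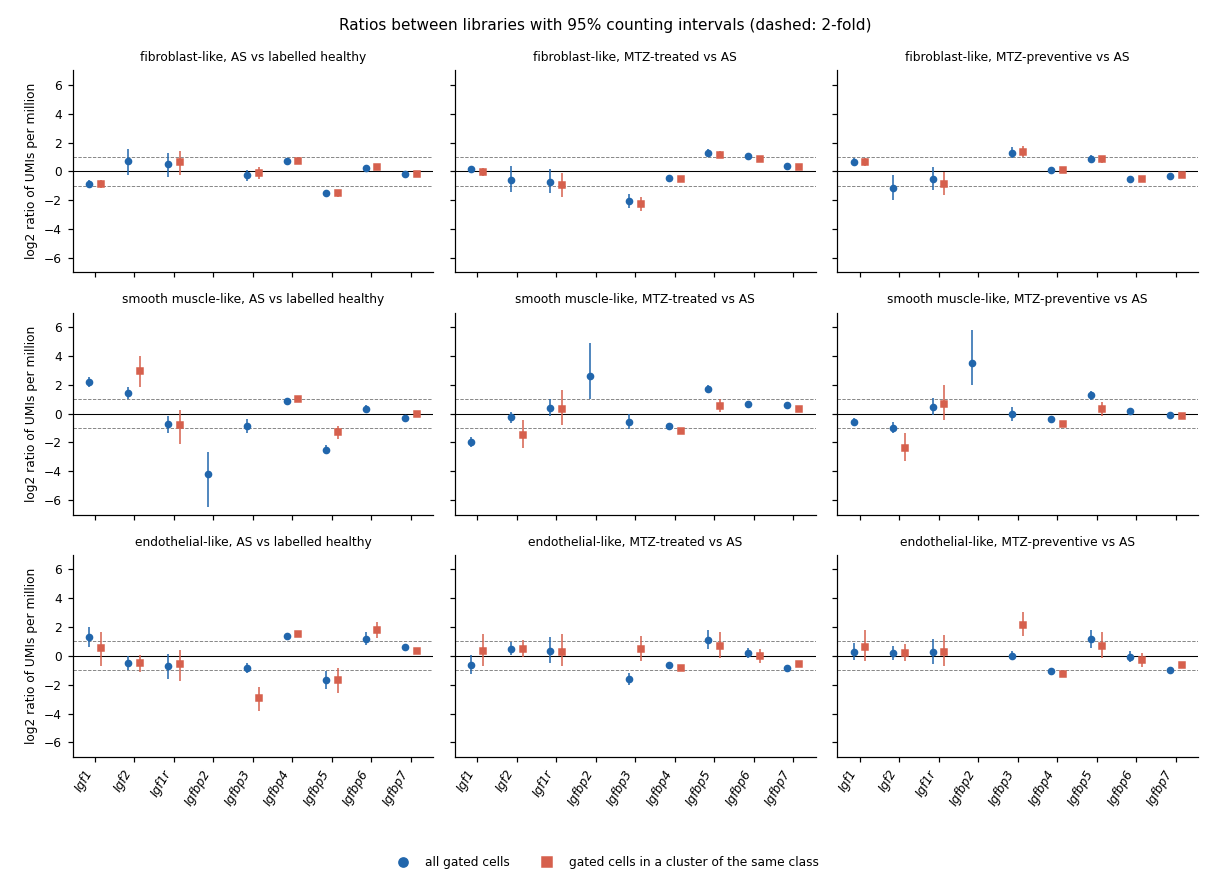
Log2 ratios of the 9 genes between libraries in 3 classes, with 95% counting intervals, for all gated cells (circles) and those also in a cluster of the class (squares). Ratios with 0 UMIs on a side and genes under the level filter are not drawn, dashed lines mark 2-fold, and Igfbp5 sits below 0 in each class where AS is set against the library labelled healthy control.

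The other genes of the pathway gave a mixed picture. Of 29 listed, 17 in fibroblast-like, 18 in smooth muscle-like and 17 in endothelial-like cells were high enough to be tested by gate. By gate, the shares of all genes called, in the order of the comparisons, were 12%, 7.44% and 5.85% in fibroblast-like cells. They were 15.8%, 10.7% and 8.49% in smooth muscle-like and 11.1%, 8.56% and 6.13% in endothelial-like cells. Fibroblast-like cells had 1 call of 17 pathway genes in each comparison by gate. These were Pik3r1, a regulatory subunit of PI3 kinase, lower in AS at 46.6 CPM against 101.2 CPM labelled healthy control, Igf2r, the receptor that clears IGF2, higher in MTZ-treated at 49.5 CPM against 24.1 CPM in AS, and Insr, the insulin receptor, higher in MTZ-preventive on 3 UMIs in AS. In fibroblast-like clusters, where 15 were tested, AS had Shc1, Pik3r1 and Igf2r lower, MTZ-treated had Igf2r higher, and no gene was called for MTZ-preventive. Of all 7722 genes there, 302 were called higher and 571 lower in AS. The counts were 230 and 310 for MTZ-treated, and 264 and 218 for MTZ-preventive. In smooth muscle-like cells of AS by gate, Ghr was higher and Grb14, Pik3ca and Htra1 lower than labelled healthy control. Irs1, Foxo3 and Ghr were lower in MTZ-treated than in AS by gate, and 0 genes were called for MTZ-preventive. Smooth muscle-like clusters had 18 tested, with 9.28%, 6.25% and 6.49% of all genes called there. In them AS had Htra1, Akt1 and Pik3r1 lower, and MTZ-treated had Htra1 higher and Shc1 and Foxo3 lower. MTZ-preventive had Htra1, Grb10 and Akt1 higher in those clusters. In endothelial-like cells of AS, Insr was higher and Pik3ca, Shc1, Htra1 and Stc1 lower than labelled healthy control. Against AS, MTZ-treated had Htra1 higher and Insr, Irs2 and Foxo3 lower there, and MTZ-preventive had Pik3ca, Shc1 and Irs2 higher. Endothelial-like clusters had 17 tested, with 9.86%, 8.69% and 7.02% of all genes called there. In them AS had Insr higher and Htra1, Irs2, Stc1 and Igf2r lower. Against AS in those clusters, MTZ-treated had Htra1 higher and Insr and Pik3ip1 lower, and MTZ-preventive had Shc1 and Irs2 higher.

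Htra1, the protease that cuts binding proteins, had the lowest endothelial ratio in AS among the called genes of the pathway. It stood at 272 CPM labelled healthy control and 54.6 CPM in AS in endothelial-like cells, a ratio of 0.201 (0.139 to 0.283), and at 0.120 (0.0634 to 0.207) in endothelial-like clusters. In MTZ-treated it was 3.19-fold higher (2.25 to 4.64) than in AS. For MTZ-preventive against AS, Htra1 was not called in endothelial-like cells, by gate or within clusters. In smooth muscle-like cells the AS level was lower too, at a ratio of 0.427 (0.353 to 0.512), and 0.274 (0.167 to 0.426) in smooth muscle-like clusters. Ghr, the growth hormone receptor, was 4.33-fold higher (3.38 to 5.54) in AS by the smooth muscle-like gate, and was not called within the clusters. Stc1, an inhibitor of pappalysins, stood at 34.9 CPM labelled healthy control and 10.9 CPM in AS in endothelial-like cells. Insr was 2.48-fold higher (1.53 to 3.98) in AS in the same cells.

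Across 34 sums of a class within a library, each of at least 20 cells, the genes whose levels ran most like each member were found among 8784 genes. These sums share libraries and depth, and the correlations (Pearson r of log2(CPM + 1)) are descriptions. The classes were picked by markers, so a gene found mostly in 1 class runs with the markers of that class by construction. Igfbp2 ran with the contractile genes Actg2 (0.876), Acta2 (0.854) and Myh11 (0.842), and Igfbp6 with Efemp1 (0.890), Gsn and Serpinf1. Igfbp4 and Igfbp7 both had Lamb2, a laminin chain, as their nearest gene, at 0.894 and 0.917. Igfbp5 ran with Ntn1 (0.897), P3h4 and Abi3bp. Igf1 ran with Htra3 (0.804), Lrp1 and Gas6, Igf2 with Timp4 (0.848), Jam2 and Zhx3, Igfbp3 with Ace (0.833), Jcad and Ptprg, and Igf1r with Afap1 (0.730), Rasl11b and Gcnt2.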

How the data were processed

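The authors deposited, for each of 4 libraries, raw UMI counts per gene and cell barcode of 10x 5′ libraries. The submitters' processing notes name Cell Ranger (5.0.0), STAR and the mm10 build. B and T cell receptor libraries were not used here.

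Counts of 38 symbols found on several lines were summed. Kept cells had more than 200 genes and 1000 UMIs, a complexity (log10 genes over log10 UMIs) above 0.7, under 10% of UMIs from mitochondrial genes and under 5% from those of red blood cells. Doublets were scored against 2 simulated per cell, and the highest 0.8% per 1000 cells were removed. Clusters used 2000 variable genes without the 9 members, 30 principal components, 20 neighbours and Leiden at resolution 1. A cell's class needed at least 3 of 10 markers.

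Counts were summed per library and class and divided by the class total (CPM). Each group is 1 library, so no test was run, and nothing here says how mice differ. Levels carry exact Poisson, ratios exact conditional binomial and shares exact Clopper-Pearson 95% intervals, which cover counting error only. The level of 3 UMIs was 0.107, 0.800, 0.200 and 0.0909 CPM over all cells of the library labelled healthy control, AS, MTZ-treated and MTZ-preventive. A called gene passed 2-fold with an interval that did not hold 1, among genes with a mean of at least 10 CPM over the 4 libraries, and classes had at least 20 cells. Named genes were the 9 members, called genes of a list of 29 pathway genes and the 3 genes nearest each member by correlation over class sums. Cluster names, motifs and values within clusters were chosen after the data were seen, and the members and lists with earlier results of these data known.

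Alternatives were other gates, classes from clusters, a looser cell filter (500 UMIs, 20% mitochondrial), TMM factors of edgeR, totals that left out hemoglobin, ribosomal protein and mitochondrial genes, equal weight per cell, no level filter and no doublet removal. For levels over all cells, all deposited barcodes and a fixed makeup of classes were also tried. The script was tested on simulated data. Promoters are from RefSeq (GRCm38.p6). Intervals came from scipy 1.17.1 with numpy 2.4.6 under Python 3.11.15. Clustering used leidenalg 0.10.2 on igraph 0.11.9 with scikit-learn 1.9.0, tables pandas 2.3.3 and plots matplotlib 3.10.9. TMM came from edgeR 4.0.16 under R 4.3.3.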

Additional observations from a re-analysis of the deposited data

Results flagged for a closer look

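In 6 flagged cases the counting interval of a log2 ratio by gate lay above 0 in 1 cell class and below 0 in another under the same comparison. The list is not complete. Igf1 in MTZ-preventive against AS, which is not among them, had 0.66 (0.41 to 0.92) in fibroblast-like and -0.58 (-0.85 to -0.29) in smooth muscle-like cells. Each class of each library is 1 value, so the difference between classes was not tested. Neither the number of pairs of classes examined nor the share of all genes with such opposed intervals is given here. The count of flagged cases therefore does not show whether the members differ from other genes in this. Intervals for counting error only are narrow where UMIs are many, so a small ratio can be flagged. In AS against the library labelled healthy control, the growth factor Igf1 had a log2 ratio of 2.19 in smooth muscle-like and -0.88 in fibroblast-like cells, and Igf2 had 1.46 in smooth muscle-like and -0.50 in endothelial-like cells. Within clusters of the class, smooth muscle-like Igf1 had 0 UMIs in AS against 34, and endothelial-like Igf2 was -0.48 (-1.09 to 0.071), so neither opposition was seen there. The other values kept their sign, at -0.87 for Igf1 in fibroblast-like and 2.93 for Igf2 in smooth muscle-like cells. In the same comparison the binding protein Igfbp4 had 1.39 in endothelial-like and -0.80 in lymphatic endothelial-like cells, and Igfbp7 had 1.63 in macrophage-like cells, from 24 UMIs labelled healthy control, and -0.34 in smooth muscle-like cells. Within clusters of the class Igfbp4 kept both signs, at 1.52 and -0.83, while Igfbp7 in smooth muscle-like cells was -0.031 (-0.105 to 0.043), an interval that holds 0. Among cells in macrophage-like clusters the Igfbp7 level labelled healthy control was 19.1 CPM, from 1 UMI in 20 cells, in place of 386 CPM, against 1191 CPM in AS both ways, so that the ratio moved from 3.09-fold (2.02 to 4.91) to 62.43-fold (11.10 to 2476). In MTZ-preventive against AS, Igfbp4 had 0.077 (0.012 to 0.142) in fibroblast-like and -1.05 in endothelial-like cells. In MTZ-treated against AS, Igfbp7 had 0.57 in smooth muscle-like and -1.69 in macrophage-like cells.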

How the results depend on the processing

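Of 99 alternative counts of called members, 84 lay within 1.5 times the reported count, and for the other 15 the cause was not tested. With an exclusive gate the counts were 2 in place of 1, 1 in place of 3 and 1 in place of 2 in fibroblast-like cells (AS against healthy control, then MTZ-treated and MTZ-preventive against AS), 1 in place of 2 for MTZ-preventive in smooth muscle-like cells, and in endothelial-like cells 2 in place of 4 for AS and 1 in place of 2 for MTZ-treated. With classes from clusters they were 2 for AS in fibroblast-like and 1 for MTZ-treated in endothelial-like cells. With the looser cell filter they were 1 for MTZ-treated in fibroblast-like and 2 for AS in endothelial-like cells. At least 4 markers gave 1 for MTZ-preventive in fibroblast-like cells, and at least 2 markers gave 1 for both MTZ libraries in endothelial-like cells. Asking for gate and cluster to agree, chosen after the data were seen, gave 1 for MTZ-preventive in fibroblast-like and 0 for MTZ-treated in endothelial-like cells. These were of 7 and 8 members tested, against 264 higher and 218 lower of all 7722 genes, and 8.69% of all 8203 genes. For the other settings the share of all genes called is not given here, so their counts do not show whether the members or all genes moved.

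Of 1240 alternative log2 ratios of single members, 942 stayed within the counting interval of the reported value, 291 moved outside it, and 7 changed sign where the reported interval did not hold 0. Under the looser cell filter Igfbp5 of fibroblast-like cells was 0.13 in AS against healthy control, and Igfbp7 of macrophage-like cells was -0.31 in that comparison and 0.13 in MTZ-treated against AS. Igfbp3 of endothelial-like cells in MTZ-treated against AS was 0.14 with the exclusive gate, 0.064 with classes from clusters and 0.45 where gate and cluster agreed. Igfbp5 of adipocyte-like cells in MTZ-preventive against AS was -1.57 with the exclusive gate.

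No paired analysis was possible because each group is 1 library, and no replicate was left out for the same reason. The AS library, with 2160 cells, limits each comparison by depth, and 3 of its UMIs stand behind the Igfbp2 value.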

Other observations

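Igfbp4 was also read in T-like cells. Their levels were 306 CPM labelled healthy control, 198 CPM in MTZ-treated and 347 CPM in MTZ-preventive, against 16.2, 30.3 and 69.4 CPM in B-like cells of the same libraries, and AS held 9 T-like cells. Thinned to 1000 UMIs per cell, 20.4%, 16.7% and 21.9% of T-like cells held an Igfbp4 UMI against 1.83%, 2.63% and 5.56% of B-like cells. Unthinned, the shares were 38.1%, 24% and 35.3% against 2.65%, 5.26% and 9.50%, at median depths of 2910, 1660 and 2316 UMIs in T-like and 1934, 1373 and 1669 UMIs in B-like cells.

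The receptor Igf1r stood at 9.93, 68.2 and 14.3 CPM in T-like cells of the same 3 libraries, on 19 UMIs in MTZ-treated. A T-like cluster led by Cxcr6 had Igf1r at 66.4, 159 and 59.6 CPM.

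An unnamed cluster of 37 cells led by Pappa2, a pappalysin that cuts binding proteins, had Igfbp2 at 227 CPM, on 13 UMIs. An Igfbp2 UMI was found in 27.0% of its cells. Of the 37 cells, 36 came from the library labelled healthy control, so the level is in effect that of 1 library.

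An unnamed cluster led by Colec11, with Actc1 and Actg2, had Igfbp5 at 2041, 1272 and 505 CPM and Igfbp3 at 524, 377 and 66.8 CPM in the library labelled healthy control, MTZ-treated and MTZ-preventive, and held 0 cells of AS.

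Mesothelial-like cells of MTZ-preventive, 24 in all, had Igfbp6 at 2693 CPM and Igfbp5 at 1044 CPM.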
